A study of Mus musculus with 20 samples.

Results

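The 36 genes examined here are a panel of T cell, natural killer (NK) cell and cytotoxic genes, listed by name and role. The list itself uses no measured value, but it was drawn up with earlier results of these data known. All 36 were found among the 19887 genes of the count table. Of these, 33 passed the filter on low counts that left 15348 genes for testing, while Cd27, a costimulatory receptor, Fasl, the death ligand, and Ifng, the cytokine interferon gamma, were too low to test. RNA came from the cecum of 20 C57BL/6 mice, 5 on each of 4 diets. All mice ate the Total Western Diet (TWD), which follows the nutrient intake of American adults, for 6 weeks after weaning, which was at 3 weeks of age or later. They then ate the TWD with 0, 2, 5, or 10% raw potato starch (RPS), a starch that resists digestion in the small intestine, for 3 weeks. The 0% RPS mice stayed on the TWD and serve as controls for each RPS diet, so the 3 comparisons share those 5 mice. Mice are numbered 1 to 5 within each diet in the order they are listed, so a number links no mice across diets.

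T cells recognize peptides through a receptor whose CD3 chains carry the signal inward, helped by the coreceptors CD4 or CD8 and by the kinases Lck and Zap70. In the gut wall, T cells are found in the epithelium as intraepithelial lymphocytes, many of them with a gamma delta receptor or with CD8 made of alpha chains only, in the lamina propria, and in organized lymphoid follicles, where they lie beside B cells. NK cells and many intraepithelial lymphocytes carry lectin-like receptors and cytotoxic granules. In RNA from whole tissue, fewer cells of a type and less RNA per cell cannot be told apart.

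Total counts were between 14967798 and 42687283 per mouse, and mitochondrial genes took 9.0 to 15.4% of them. Levels are CPM, the counts of a gene relative to the library total, scaled by TMM, and 3 counts, taken as the floor of detection, were 0.19 CPM in the smallest library. The 10 epithelial markers summed to between 36803 and 44175 CPM on 0% RPS (median 38176) and between 26223 and 42079 on 10% RPS (median 31225). Such a sum gives no share of cells. Car1 alone made up 53.3 to 63.8% of that sum in the mice on these 2 diets, and the other 9 genes summed to a median of 14379 CPM on 0% and 13366 CPM on 10% RPS. With 10% RPS, 3 of the 10 (Cdh1, Krt19, and Car1) were lower at an unadjusted p under 0.05, beside 9.75% of all genes. Slc26a3, an anion exchanger of surface cells, was higher and past the threshold (0.61 ± 0.16, adjusted p = 0.0487 in edgeR), beside 0.547% of all genes upward. Of 11 myeloid markers tested, all 11 were above 0 (median 0.45) and 4 had an unadjusted p under 0.05, beside 9.74% of all genes, with sums of 93.7 to 262 CPM on 0% and 153 to 294 CPM on 10% RPS. Markers of B cells varied most between mice. The sum of 12 B cell markers ran from 14.5 to 336 CPM on 0% RPS, from 10.8 to 501 on 2%, from 18.2 to 229 on 5% and from 28.3 to 463 on 10% RPS, with none of the 12 past the threshold for 10% RPS although all 12 had a log2 fold change above 0 (median 2.04). Their mean log2 CPM, used below as the B cell marker level, was over 4 in mouse 2 on 0% RPS, mouse 3 on 2%, mouse 4 on 5% and 4 of the 5 mice on 10% RPS.

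Promoter sequences are shown for members at both ends of a measure described below, the slope of each gene on the B cell marker level. They are the 2 members with the steepest and the 2 with the lowest slope among those with an entry in RefSeq's promoter table (GRCm38.p6) that starts within 100 bases of the gene's annotated 5′ end. The table held 28 of the 36 members. Cd4, Cd8b1, Cd2, Cd6, Cd7, Cd28, Thy1, and Klrd1 had no entry. Each sequence is the 250 bases before the start, 5′ to 3′ on the gene's strand, and its position is that of the exact match in GRCm39. Capitals mark matches, on either strand, to short forms of the sites of factors that are themselves members. For the TCF/LEF factors (Tcf7 and Lef1) the letters searched were CTTTGA. For the T-box factors (Eomes and Tbx21) they were GTGTGA. For Gata3 they were AGATAA; matches to different motifs did not overlap in the windows shown.
Cd5 (chr19:10716339-10716588, minus strand, steep slope): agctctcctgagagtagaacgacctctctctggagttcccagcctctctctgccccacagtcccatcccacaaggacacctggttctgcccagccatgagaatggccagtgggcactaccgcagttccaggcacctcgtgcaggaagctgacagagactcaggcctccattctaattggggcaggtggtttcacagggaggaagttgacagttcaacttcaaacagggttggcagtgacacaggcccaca
Lef1 (chr3:130903696-130903945, plus strand, steep slope): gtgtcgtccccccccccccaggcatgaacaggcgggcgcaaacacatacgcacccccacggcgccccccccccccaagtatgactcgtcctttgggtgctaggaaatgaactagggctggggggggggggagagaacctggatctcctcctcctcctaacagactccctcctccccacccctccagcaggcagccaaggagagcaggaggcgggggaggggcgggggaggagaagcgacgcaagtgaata
Eomes (chr9:118307007-118307256, plus strand, low slope): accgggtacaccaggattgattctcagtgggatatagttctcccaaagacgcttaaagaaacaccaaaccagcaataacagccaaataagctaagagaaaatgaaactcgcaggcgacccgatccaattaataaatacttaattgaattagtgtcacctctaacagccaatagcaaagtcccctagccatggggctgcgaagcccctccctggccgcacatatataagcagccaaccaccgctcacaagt
Xcl1 (chr1:164763092-164763341, minus strand, low slope): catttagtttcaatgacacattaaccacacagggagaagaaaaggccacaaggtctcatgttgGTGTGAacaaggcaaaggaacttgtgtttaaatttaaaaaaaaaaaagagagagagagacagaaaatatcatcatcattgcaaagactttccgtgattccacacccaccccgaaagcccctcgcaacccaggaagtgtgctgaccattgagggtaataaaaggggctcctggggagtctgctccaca
The T-box letters were found in the Xcl1 window, and none of the 3 motifs in the other windows. Over the first entry of each gene, the T-box letters were in 7 of 28 members and in 12.2% of all 27025 promoters. The TCF/LEF letters were in 3 of 28 members and 14% of all, and the GATA letters in 2 of 28 and 10.3%.

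To learn whether RPS changed these genes, each diet was compared with 0% RPS. No member passed the threshold, which asked for an adjusted p (Benjamini-Hochberg, over all 15348 genes, edgeR's quasi-likelihood test) no higher than 0.05 and a fold change of 1.5 or more. With 10% RPS, 0 of 33 members were past it, against 1.04% of all genes. At an unadjusted p under 0.05, 3 members were higher (Bcl11b, Cd28, and Prf1), beside 9.74% of all genes, and 2 were lower (Cd7 and Eomes), beside 9.75%. DESeq2's Wald test, which gave an adjusted p for 32 members and 14946 genes, called 1 member upward, Cd28, beside 1.43% of those genes, and 1 downward, Cd7, beside 1.03%. The median log2 fold change of the 33 members was 0.44, beside 0.00 for all genes tested, with 23 members higher and 10 lower. With the B cell marker level as a covariate the median became -0.21, with 8 higher and 25 lower, and 15 members changed sign. All 12 B cell markers were themselves above 0 with 10% RPS (median log2 fold change 2.04). Diet and B cell marker level therefore cannot be fully told apart in this fit. In that fit 2 members were higher at an unadjusted p under 0.05, beside 9.14% of all genes, and 6 were lower, beside 8.76%.

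**Figure D1:**
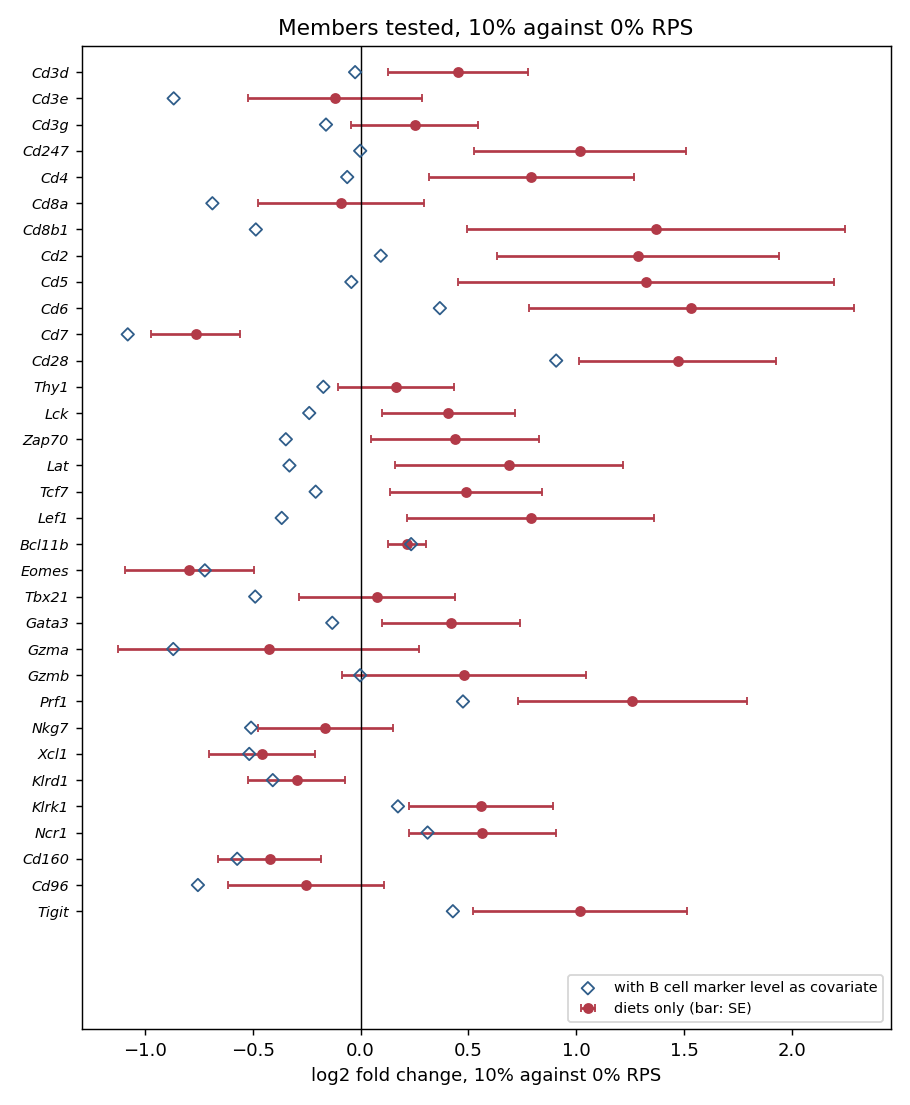
Log2 fold change of each of the 33 members tested, 10% against 0% RPS, from edgeR (n = 5 mice per diet). Filled circles with SE bars are from the fit on diets only and open diamonds from the fit with the B cell marker level as a covariate; Cd7 stayed below 0 and Cd28 above 0 in both, while 15 members moved across 0.

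With 5% RPS, 0 of 33 members passed the threshold in edgeR, beside 0.195% of all genes, and no member did in DESeq2, beside 0.849% of genes upward and 0.562% downward. At an unadjusted p under 0.05, Bcl11b was higher, beside 6.74% of all genes, and Cd7, Eomes, and Cd160 were lower, beside 6.54%. With 2% RPS, 0 of 33 members and 0% of all genes passed in edgeR, no member passed in DESeq2, beside 0.0054% of genes upward and 0.0216% downward, and Bcl11b alone had an unadjusted p under 0.05 (higher, beside 2.58% of all genes; 3.19% were lower). A straight-line trend on the dose of RPS, for which no fold change was required, passed for 0 of 33 members and 1.11% of all genes in edgeR, and for Cd28 upward and Cd7 downward in DESeq2, beside 2.01 and 2.83% of genes. For the trend, 5 members had an unadjusted p under 0.05 upward (Cd2, Cd28, Ncr1, Prf1, and Tigit), beside 9.37% of all genes, and 2 downward (Cd7 and Eomes), beside 9.47%.

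Cd7, a small immunoglobulin-family receptor of T and NK cells that is prominent on intraepithelial lymphocytes, had the lowest p of the panel (ENSMUSG00000025163, chr11:120927570-120930289, GRCm39, minus strand). Its level in mice 1 to 5 was 7.78, 8.88, 8.52, 7.02, and 10.1 CPM on 0% RPS and 4.60, 3.05, 5.50, 5.94, and 5.89 CPM on 10% RPS. Every mouse on 10% RPS lay below every mouse on 0% RPS, which was true of 3.2% of all genes tested and of no other member, and the reverse order was found in no member and in 1.68% of all genes. On 2% RPS it was 6.28, 5.43, 11.6, 7.36, and 4.91 CPM, and on 5% RPS 4.93, 5.93, 6.03, 6.07, and 5.18 CPM. The 2% mice overlapped both ranges, and all 5 mice on 5% RPS lay below the lowest control, which was true of 2.04% of all genes. The log2 fold change for 10% RPS was -0.77 ± 0.21 (SE), short of the threshold in edgeR's quasi-likelihood test (adjusted p = 0.0589), as was the trend (adjusted p = 0.0525). The part of the epithelial markers, which moved in both directions as given above, in the Cd7 difference was not tested. It passed with the B cell marker level as a covariate (log2 fold change -1.08, adjusted p = 0.0215), with the mitochondrial share as a covariate (-0.72, adjusted p = 0.0328), in DESeq2's Wald test (-0.77, adjusted p = 0.0134) and without mouse 4 on 10% RPS (-0.83, adjusted p = 0.0479 in edgeR).

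Cd28, the costimulatory receptor that T cells need for full activation, differed in the other direction (ENSMUSG00000026012, chr1:60755959-60812518, GRCm39, plus strand). It was at 0.716, 1.91, 0.488, 0.537, and 0.459 CPM on 0% RPS and at 2.37, 1.45, 3.19, 1.65, and 2.63 CPM on 10% RPS. Mouse 2 of the controls, the one with a high B cell marker level, lay inside the range of the 10% mice, and the other 4 controls lay below it. The 2% mice were at 0.779, 0.243, 2.25, 0.772, and 0.628 CPM and the 5% mice at 1.07, 1.30, 1.33, 1.70, and 2.12 CPM. The log2 fold change for 10% RPS was 1.47 ± 0.46 (SE), with an adjusted p of 0.0888 in edgeR's quasi-likelihood test, and the trend had an adjusted p of 0.0591. It passed in DESeq2's Wald test (1.47, adjusted p = 0.0288), with the mitochondrial share as a covariate (1.51, adjusted p = 0.0472 in edgeR) and without mouse 2 of the controls (2.03, adjusted p = 0.0233 in edgeR). With the B cell marker level as a covariate it was 0.91 (adjusted p = 0.188 in edgeR).

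**Figure D2:**
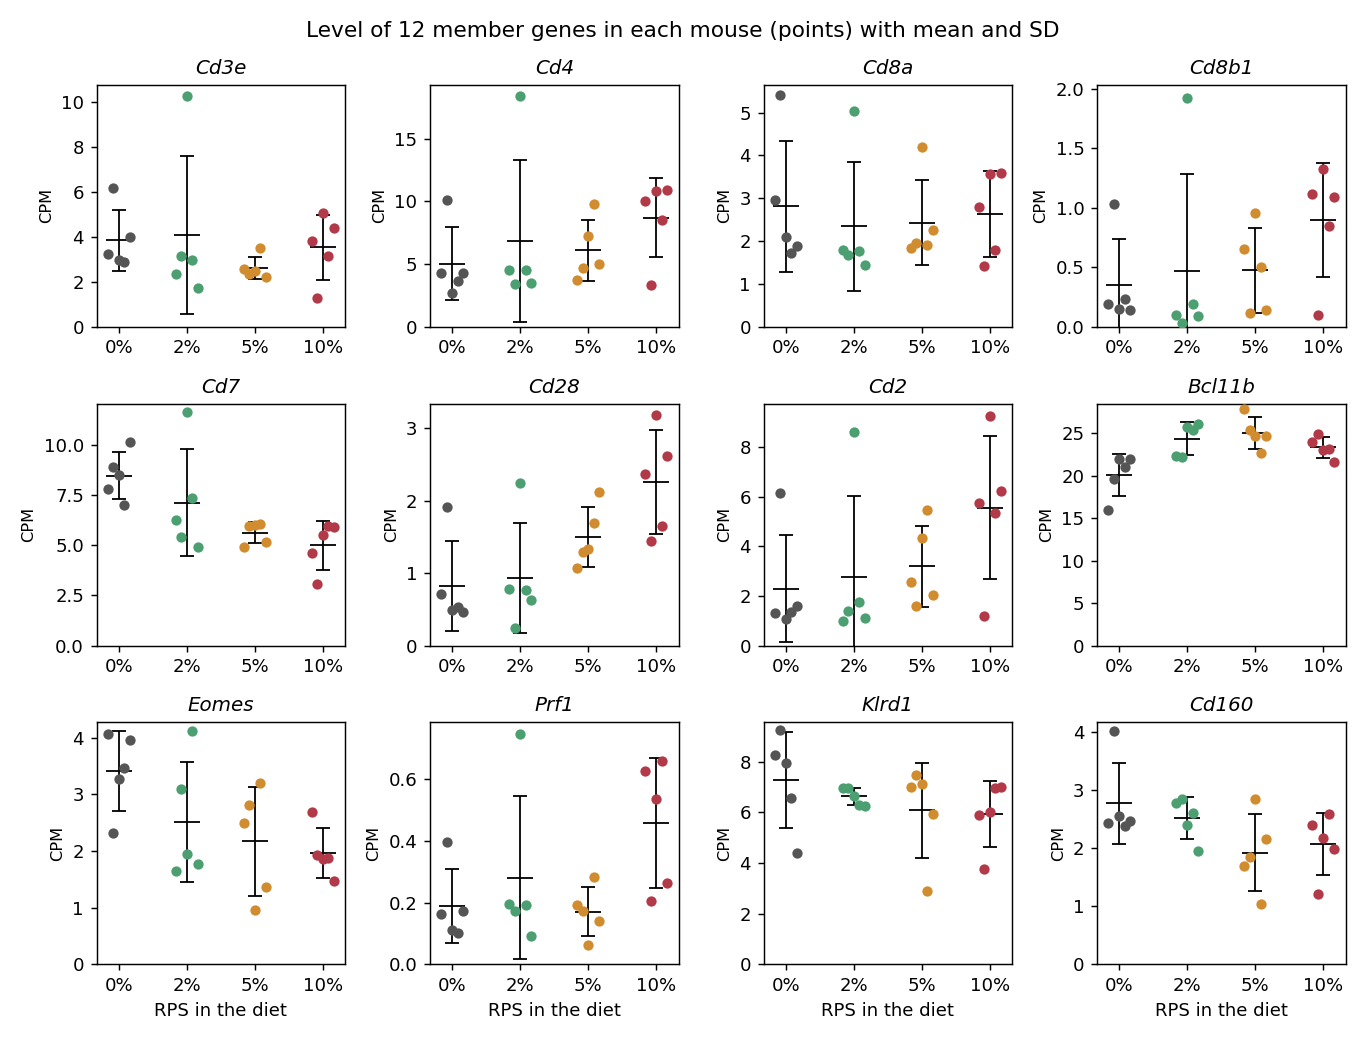
Level (CPM, linear axis from 0) of 12 members in each mouse, by percentage of RPS in the diet; points are mice and black bars the mean and SD (n = 5 per diet). Cd7 sat between 3.05 and 5.94 CPM on 10% RPS, below all 5 controls, and single mice stood far above the rest of their diet for Cd4, Cd8b1, and Cd2.

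The CD3 chains, which form the signalling part of the T cell receptor, did not pass the test in any comparison. Cd3e was at 3.22, 6.17, 2.96, 2.89, and 3.99 CPM on 0% RPS and at 3.83, 1.29, 5.06, 3.16, and 4.39 CPM on 10% RPS. The ranges overlapped, with mouse 2 highest on 0% RPS and mouse 2 lowest on 10% RPS. Its log2 fold change was -0.12 ± 0.41 (SE, adjusted p = 0.908 in edgeR), and leaving out either of those mice turned the sign. It was -0.87 with the B cell marker level as a covariate (unadjusted p = 0.0094, adjusted p = 0.141 in edgeR), and the trend in that fit was -0.10 per percent of RPS (adjusted p = 0.0855). Cd247, the zeta chain, had the largest difference of the 4 (1.02 ± 0.49, adjusted p = 0.262 in edgeR) and was near 0 with the B cell marker covariate. Its gene body overlaps Pou2f1 and a pair of predicted genes on the other strand. Cd3g had the highest level per length of the 4, at a mean of 1.14 CPM per kb of exon over all mice, and its log2 fold change of 0.25 was 0.46 without mouse 2 of the controls and 0.050 without mouse 3 on 10% RPS.

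Of the coreceptors, Cd4 had the highest level per length (1.49 CPM per kb), followed by Cd8a (0.703) and Cd8b1 (0.248). Cd4 marks helper T cells, Cd8a is carried by both kinds of CD8 dimer, and Cd8b1 encodes the beta chain found on conventional CD8 T cells. Cd4 was at 4.33, 10.2, 2.74, 3.69, and 4.27 CPM on 0% RPS and at 10.0, 3.33, 10.8, 8.53, and 10.9 CPM on 10% RPS. Cd8a was at 2.96, 5.42, 2.10, 1.71, and 1.89 CPM on 0% RPS and at 2.79, 1.42, 3.57, 1.79, and 3.60 CPM on 10% RPS. For both genes the ranges overlapped. Cd8b1 was low, at 0.195, 1.04, 0.150, 0.235, and 0.143 CPM on 0% RPS and 1.12, 0.103, 1.33, 0.848, and 1.09 CPM on 10% RPS, and in 4 of the 5 controls it was near the floor of detection of about 0.1 CPM. None of the 3 differences passed in edgeR (adjusted p = 0.369 for Cd4, 0.929 for Cd8a, and 0.402 for Cd8b1). Cd8a moved from -0.09 to -0.69 with the B cell marker covariate (unadjusted p = 0.0229, adjusted p = 0.203 in edgeR), and Cd4 from 0.79 to -0.06. Without mouse 2 of the controls Cd4 was at 1.21 and Cd8b1 at 2.28, against 1.37 with it.

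Among the costimulatory and adhesion receptors, Cd2, an adhesion receptor of T and NK cells, was at 1.30, 6.13, 1.09, 1.34, and 1.58 CPM on 0% RPS and at 5.75, 1.19, 9.26, 5.32, and 6.23 CPM on 10% RPS. Mouse 2 of each diet was on the far side of its group, and the ranges overlapped through those 2 mice. The log2 fold change was 1.29 ± 0.65 (SE, adjusted p = 0.287 in edgeR) and 0.09 with the B cell marker covariate. Cd6, a receptor that tunes T cell signalling, differed by 1.53 ± 0.75 (adjusted p = 0.269) and by 0.37 with the covariate. Without mouse 2 of the controls Cd2 was at 2.06 and Cd6 at 2.54. Thy1, a surface protein of T cells that stromal cells and neurons also carry, differed by 0.16 ± 0.27 (adjusted p = 0.787). Cd7 had the highest level per length of the whole panel, at 5.55 CPM per kb.

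The proximal signalling proteins Lck, Zap70, and Lat pass the signal from the receptor to the cell. With 10% RPS their log2 fold changes were 0.41 ± 0.31, 0.44 ± 0.39, and 0.69 ± 0.53 (SE). None passed the threshold, with adjusted p between 0.486 and 0.567 in edgeR. Lck was at 7.45, 12.2, 7.69, 7.22, and 7.55 CPM on 0% RPS and at 12.4, 5.21, 15.1, 9.23, and 13.9 CPM on 10% RPS. Mouse 2 of the controls stood above the other 4, which lay between 7.22 and 7.69 CPM. With the B cell marker covariate all 3 genes were below 0.

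Of the transcription factors, Bcl11b, which fixes the T cell lineage, was the most abundant per length (2.46 CPM per kb) and the most even. It was at 15.98, 19.6, 21.9, 20.95, and 21.98 CPM on 0% RPS, at 22.3, 22.1, 25.7, 25.4, and 26.1 on 2%, at 27.9, 25.4, 24.6, 22.6, and 24.6 on 5%, and at 23.9, 24.9, 22.98, 23.1, and 21.6 CPM on 10% RPS. Every mouse on 2 or 5% RPS was above every control, which was true of 0.417 and 1.53% of all genes and of no other member, and on 10% RPS mouse 5 fell inside the control range. No member had every mouse on 2% RPS below every control, beside 0.671% of all genes. The log2 differences were 0.28 ± 0.09, 0.32 ± 0.09, and 0.21 ± 0.09 (SE) for 2, 5, and 10% RPS, with adjusted p of 0.780, 0.0964, and 0.192 in edgeR. The difference for 10% RPS was 0.14 without mouse 1 of the controls. Eomes, a T-box factor of NK cells and cytotoxic T cells, was at 4.07, 2.31, 3.26, 3.46, and 3.96 CPM on 0% RPS and 2.68, 1.94, 1.86, 1.88, and 1.46 CPM on 10% RPS. Only mouse 1 on 10% RPS overlapped the controls, through mouse 2 of the controls, and the log2 fold change was -0.79 ± 0.30 (SE, adjusted p = 0.155 in edgeR). Eomes and Bcl11b kept their sign and about their size with the B cell marker covariate (-0.72 and 0.23). Over all mice Bcl11b had a mean of 23.2 CPM, beside 3.53 CPM for Cd3e. Which cells the Bcl11b RNA came from was not tested.

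Of the cytotoxic effectors, Prf1, the pore-forming perforin, was at 0.163, 0.398, 0.113, 0.101, and 0.172 CPM on 0% RPS and at 0.627, 0.207, 0.537, 0.660, and 0.263 CPM on 10% RPS, with overlapping ranges. Its counts were small, between 1 and 25 per mouse, and its log2 fold change of 1.26 ± 0.53 (SE) had an adjusted p of 0.199 in edgeR and became 0.47 with the B cell marker covariate. Gzma, a granzyme of cytotoxic granules, was at 1.07 CPM in mouse 1 of the controls and between 0.101 and 0.358 CPM in the other 4, and at 0.0750 to 0.506 CPM on 10% RPS. The log2 fold change was -0.43 ± 0.70 with that mouse and 0.45 when it was left out, and -0.87 with the covariate. Gzmb, the other granzyme, differed by 0.48 ± 0.57 (adjusted p = 0.682), with 0.96 without mouse 1 and 0.27 without mouse 3 of the controls, and Xcl1, the lymphotactin chemokine of NK and CD8 T cells, by -0.46 ± 0.25 (adjusted p = 0.309). Xcl1 had the highest level per length of this group (2.36 CPM per kb).

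Klrd1, the CD94 chain of the NK receptors, had the highest level per length of the NK receptors (4.85 CPM per kb). It was at 8.27, 9.24, 7.95, 6.55, and 4.39 CPM on 0% RPS and at 5.89, 3.77, 6.00, 6.97, and 7.01 CPM on 10% RPS, with overlapping ranges. The log2 fold change was -0.30 ± 0.22 (SE, adjusted p = 0.487 in edgeR), and -0.17 without mouse 2 on 10% RPS. DESeq2's Wald test gave -0.30 (adjusted p = 0.458). The paper, by its own DESeq2 analysis, counts Klrd1 among the genes higher with 10% RPS in the cecum, the other direction. Cd160, a receptor of intraepithelial lymphocytes and NK cells, was at 2.44, 4.02, 2.55, 2.38, and 2.47 CPM on 0% RPS and at 2.41, 1.21, 2.18, 2.59, and 1.99 CPM on 10% RPS. Its log2 fold change was -0.42 ± 0.24 (adjusted p = 0.338), and -0.25 without mouse 2 of the controls or -0.27 without mouse 2 on 10% RPS. Its gene body overlaps Pdzk1 on the other strand. Tigit, an inhibitory receptor, differed by 1.02 ± 0.50 (adjusted p = 0.263) and Klrk1, the activating receptor NKG2D, by 0.56 ± 0.33 (adjusted p = 0.362); the covariate took them to 0.43 and 0.17, and Klrk1 was at 0.36 without mouse 5 on 10% RPS.

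Single mice stood apart across many members at once. On 0% RPS, mouse 2 had the highest level of its diet for 22 of the 33 members tested, and on 2% RPS mouse 3 did for 27 of 33. On 10% RPS, mouse 2 had the lowest level for 27 of 33. The mean log2 CPM of the 33 members was 1.51 in mouse 2 on 0% RPS against 0.51 to 0.78 in the other controls, 1.98 in mouse 3 on 2% RPS against 0.38 to 0.72, and 0.26 in mouse 2 on 10% RPS against 1.24 to 1.62. The B cell marker level ran with it, at 4.63 in that control, 5.16 in that 2% mouse and 1.05 in that 10% mouse. By diet the mean over mice was 0.78 ± 0.42 (SD) on 0%, 0.79 ± 0.68 on 2%, 0.92 ± 0.22 on 5% and 1.19 ± 0.54 on 10% RPS (n = 5 each), and the ranges of 0 and 10% RPS overlapped.

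**Figure D3:**
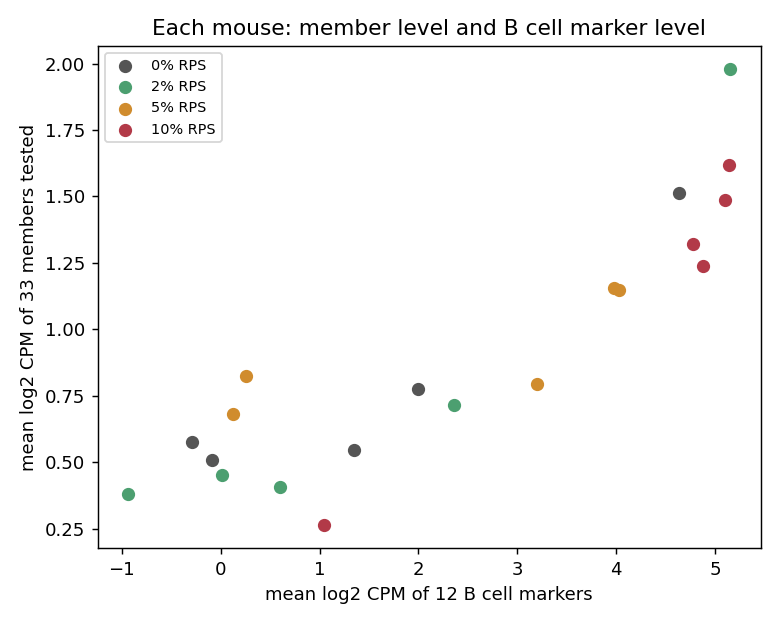
Mean log2 CPM of the 33 members tested (y) against mean log2 CPM of 12 B cell markers (x), 1 point per mouse, colored by diet. The mice with the highest member level on 0, 2, and 10% RPS (1.51, 1.98, and 1.62) also had the highest B cell marker level of their diet; on 5% RPS mouse 3 was highest for the members (1.16, B cell marker level 3.98) and mouse 4 for the B cell markers (1.15, B cell marker level 4.03).

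To describe which members varied with B cell markers, a slope on the B cell marker level was fitted for each gene over all 20 mice with the diets as covariates. The slope was chosen after the data were seen. It was positive with an adjusted p of at most 0.05 by edgeR's quasi-likelihood test for 17 of 33 members, beside 4.9% of all genes, and negative for 0 of 33, beside 0.489%. The median slope was 0.21 log2 units per log2 unit of B cell marker level for the members and -0.01 for all genes. By role, the slope passed for 3 of 4 CD3 chains, all 3 coreceptors, 4 of 6 costimulatory and adhesion receptors tested, all 3 proximal signalling proteins, and 3 of 6 transcription factors (Tcf7, Lef1, and Tbx21). It passed for 1 of 5 cytotoxic effectors tested (Prf1) and for 0 of 6 NK receptors and checkpoints. At an unadjusted p under 0.05 the slope was positive for 3 and 2 of them, for which no share of all genes is given. Of 10 markers of lymphoid tissue stroma and high endothelium, 7 had a positive slope that passed, among them Cxcl13 (0.54), a chemokine of B cell follicles. With 10% RPS, 8 of the 10 had a log2 fold change above 0 (median 1.32). Of those, 2 had an unadjusted p under 0.05, beside 9.74% of all genes. Pdpn, the marker of this list with the lowest p, was below 0 (-0.40, unadjusted p = 0.00913, adjusted p = 0.126 in edgeR). The 10 markers summed to between 107 and 265 CPM on 0% RPS and to between 118 and 319 CPM on 10% RPS, with Ccl19 at 0 in 2 mice and Glycam1 in 3. Of the 11 myeloid markers, 6 had a positive slope that passed. The part of these other cell types in the members' slopes was not tested.

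Among single members, Cd8b1 had the steepest slope, at 0.76 ± 0.06 (SE, adjusted p = 1.27e-08 in edgeR), and Cd8a a slope of 0.24 ± 0.05. Cd5, which dampens receptor signalling, had 0.64 ± 0.08, Cd6 0.53 ± 0.06, and Cd2 0.47 ± 0.05. Lef1, a factor of naive T cells, had 0.39 ± 0.06. At the other end were Eomes at -0.03 ± 0.06, Bcl11b at -0.01 ± 0.02, Xcl1 at 0.02 ± 0.05, Klrd1 at 0.04 ± 0.04, and Cd160 at 0.06 ± 0.05. Whether a pair of slopes differed was not tested.

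**Figure D4:**
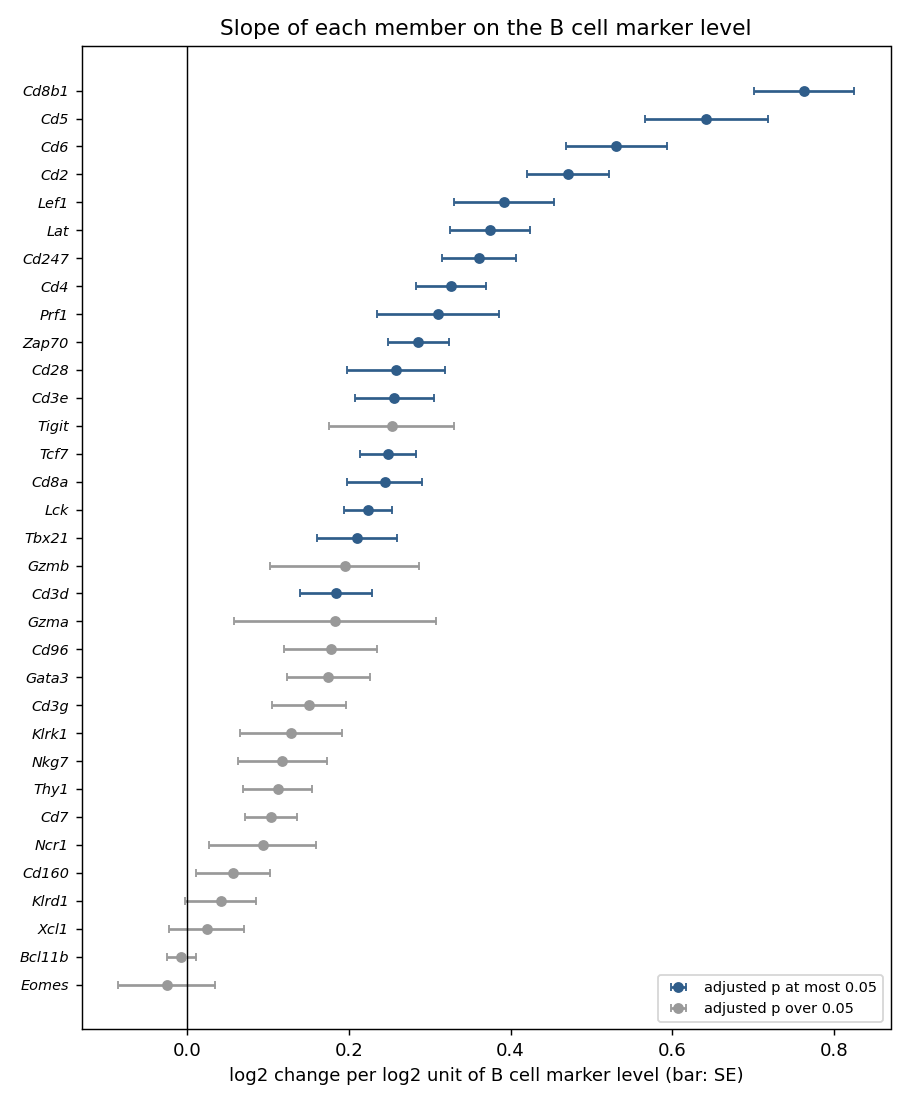
Slope of each of the 33 members tested on the B cell marker level (log2 per log2 unit, bars are SE, 20 mice, diets as covariates), in order of size. The 17 members in blue had an adjusted p of at most 0.05; Cd8b1 (0.76) and Cd5 (0.64) lay at the top and Eomes (-0.03) at the bottom.

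The same question was asked of single genes by correlation over the 20 mice, with 100000 permutations and adjustment over the 6 relations of Cd3e computed. Cd3e was positively related to Cd4 (Pearson r = 0.76, p = 6e-05, adjusted p = 0.00036; Spearman rho = 0.66, p = 0.00222) and to Cd8a (r = 0.75, p = 0.00015, adjusted p = 0.00045; rho = 0.61, p = 0.00482). So it was to the B cell gene Ms4a1 (r = 0.53, p = 0.0136, adjusted p = 0.0204; rho = 0.56, p = 0.0103) and to Ccl21a, a chemokine of lymphoid stroma (r = 0.63, p = 0.00311, adjusted p = 0.00622; rho = 0.62, p = 0.00402). No relation was detected with the epithelial gene Epcam (r = -0.06, p = 0.816, adjusted p = 0.816; rho = -0.15, p = 0.522) or with Gzma (r = 0.28, p = 0.229, adjusted p = 0.275; rho = 0.31, p = 0.179). Without the 2 mice farthest from the median of Cd3e, mouse 3 on 2% and mouse 2 on 10% RPS, r was 0.64 for Cd4, 0.64 for Cd8a, 0.55 for Ms4a1, 0.50 for Ccl21a, -0.16 for Epcam, and 0.16 for Gzma. Within diets r was 0.91, 0.78, 0.71, 0.74, -0.11, and 0.36 in the same order.

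Ratios of a pair of members ask whether the panel's composition differed while its level varied. They were compared between 10 and 0% RPS by a two-sided exact permutation test over all assignments of the 10 mice, which allows no p under 0.00794, with adjustment over 6 ratios. The log2 ratio of Cd4 to Cd8a was 0.54, 0.90, 0.37, 1.08, and 1.15 on 0% RPS and 1.82, 1.19, 1.58, 2.21, and 1.58 on 10% RPS. All 5 mice on 10% RPS were above all 5 controls, mouse 2 with its low B cell marker level among them, and the means differed by 0.87 (exact p = 0.00794, adjusted p = 0.0159). The log2 ratio of Lef1 to Cd3e was -1.95, -1.44, -1.65, -1.07, and -1.64 on 0% RPS and -0.60, -0.88, -0.68, -0.53, and -0.67 on 10% RPS, again without overlap (difference 0.88, exact p = 0.00794, adjusted p = 0.0159). Tcf7, a factor of naive and memory T cells that innate lymphoid cells also use, was higher relative to Cd3e in every mouse on 10% RPS than in any control (difference 0.63, exact p = 0.00794, adjusted p = 0.0159), with means of 1.67 ± 0.14 and 1.04 ± 0.16 (SD, n = 5 each).

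The log2 ratio of Cd8a to Cd8b1 was 3.53, 2.31, 3.32, 2.56, and 3.21 on 0% RPS and 1.27, 3.12, 1.38, 1.02, and 1.67 on 10% RPS. Mouse 2 on 10% RPS lay among the controls, and the means differed by -1.29 (exact p = 0.0238, adjusted p = 0.0357). In that mouse and in 4 of the controls Cd8b1 was near the floor of detection, and the adjusted p was 0.0595 with a prior count of 0.5 in place of 2. Gzma and Gzmb relative to Cd3e did not differ beyond their spread (differences 0.06 and 0.77, exact p = 0.952 and 0.214, adjusted p = 0.952 and 0.257). The B cell marker level differed between these mice as given above. With that level as a term in a least-squares fit over all 20 mice, chosen after the data were seen and run without a test, the difference was 0.63 ± 0.28 (SE) for Cd4 to Cd8a and 0.64 ± 0.20 for Tcf7 to Cd3e. For Lef1 to Cd3e it fell from 0.88 to 0.58 ± 0.28, with a 95% interval of -0.0076 to 1.17, and for Cd8a to Cd8b1 it moved from -1.29 to -0.29 ± 0.29. For Gzma to Cd3e it was 0.30 ± 0.70, and for Gzmb to Cd3e 1.15 ± 0.58, with a 95% interval of -0.078 to 2.37.

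**Figure D5:**
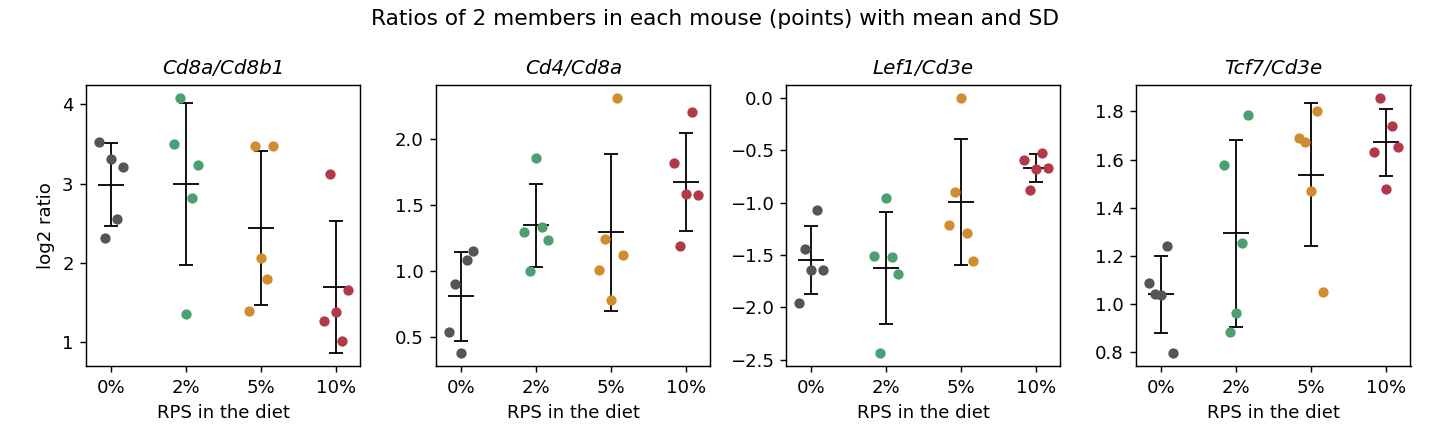
Log2 ratio of 4 pairs of members in each mouse, by percentage of RPS in the diet; points are mice and black bars the mean and SD (n = 5 per diet). Cd4/Cd8a, Lef1/Cd3e, and Tcf7/Cd3e were higher in all 5 mice on 10% RPS than in all 5 controls.

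Other genes of T cell biology were taken from lists made by function. Of the T cell receptor constant genes, 1 of 7 tested passed the threshold with 10% RPS, downward, beside 0.495% of all genes in that direction. It was Trgc2, a constant gene of the gamma chain, at 2.38, 3.11, 3.11, 2.28, and 2.21 CPM on 0% RPS and 1.57, 1.08, 1.30, 1.70, and 1.35 CPM on 10% RPS. Every mouse on 10% RPS lay below every control, which was true of 3.2% of all genes. The log2 fold change was -0.91 ± 0.19 (SE, adjusted p = 0.0251 in edgeR, and 0.0297 for the trend). DESeq2's Wald test called Trgc2 as well with 10% RPS (adjusted p = 0.000614), beside 1.03% of genes downward. With 5% RPS it differed by -0.71 (adjusted p = 0.0846 in edgeR). Leaving out mouse 3 of the controls, or mouse 1, 2, or 3 on 10% RPS, ended the edgeR call for 10% RPS. The adjusted p was between 0.0131 and 0.0819 over the 10 mice left out in turn. Trgc4 differed by -0.53 ± 0.21 (adjusted p = 0.166). Both were past the threshold in edgeR with the B cell marker level as a covariate, Trgc2 at -0.99 (adjusted p = 0.0311) and Trgc4 at -0.86 (adjusted p = 0.0263), beside 0.215% of all genes downward. The part of the epithelial markers in these differences was not tested. Some gamma constant genes are close in sequence, so counts such as those of Trgc2 can depend on how shared reads were treated. That treatment is not given in the sources used here. Trac, the alpha chain constant gene, differed by 0.69 ± 0.62 (adjusted p = 0.575) and had a B cell marker slope of 0.44 that passed, while the delta chain gene Trdc had a slope of 0.05 that did not.

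Of 19 genes of intraepithelial residence and its epithelial partners, 1 passed, upward, beside 0.547% of all genes in that direction. It was Tnfrsf14 (HVEM), a receptor that binds Cd160 and is made by epithelial and immune cells, at 9.41, 8.72, 5.93, 6.92, and 5.82 CPM on 0% RPS and 13.5, 15.2, 13.1, 10.7, and 9.60 CPM on 10% RPS. Every mouse on 10% RPS was above every control, which was true of 1.68% of all genes. The log2 fold change was 0.76 ± 0.18 (SE, adjusted p = 0.0358 in edgeR), with 0.86 ± 0.18 for 5% RPS (adjusted p = 0.0459). The call for 10% RPS was lost without mouse 3, 4, or 5 of the controls and without mouse 1, 2, or 3 on 10% RPS (adjusted p between 0.0266 and 0.111 in edgeR over the 10 mice left out) and with the B cell marker covariate (0.68, adjusted p = 0.0732).

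Of the other lists in edgeR, 0 of 25 genes of downstream T cell receptor signalling passed, 0 of 13 costimulation, checkpoint and help receptors, 0 of 22 other cytotoxic and NK genes and 0 of 7 naive and recirculating T cell genes. At an unadjusted p under 0.05, 8, 6, 3, and 0 of them were higher, beside 9.74% of all genes, and none was lower, beside 9.75%. The count of downstream signalling genes at that p went from 8 higher to 1 higher and 2 lower with the B cell marker covariate, and their median log2 fold change from 0.45 to -0.06. The costimulation list went from 6 to 3 higher and from a median of 1.16 to 0.25. The cytotoxic and NK list went from 3 to 0 higher and 1 lower, and the naive list to 0 higher and 1 lower, beside 9.14% of all genes higher and 8.76% lower in that fit. Ctla4, the inhibitory counterpart of Cd28, had the lowest p of the costimulation list, at 1.71 ± 0.50 (adjusted p = 0.0746 in edgeR). DESeq2's Wald test called Ctla4 (adjusted p = 0.0167) and no other gene of these 4 lists, beside 1.43% of genes upward and 1.03% downward. It was 0.92 with the B cell marker covariate (adjusted p = 0.159 in edgeR), and its B cell marker slope of 0.33 passed (adjusted p = 0.000461). Of 7 smooth muscle markers, 5 were higher with 10% RPS at an unadjusted p under 0.05, beside 9.74% of all genes, and 7 with 5% RPS, beside 6.74%. Actg2 was past the threshold in both (1.28 ± 0.30, adjusted p = 0.0358, and 1.53 ± 0.30, adjusted p = 0.0425 in edgeR), beside 1.04 and 0.195% of all genes in either direction. DESeq2 called 2 of the 7 upward with 10% RPS, beside 1.43% of genes, and 5 with 5% RPS, beside 0.849%. The part of smooth muscle in the results was not tested.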

How the data were processed

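RNA from the cecum of 20 mice, 5 per diet by their treatment labels, was sequenced from stranded poly(A) libraries with single-end reads. The authors used the CLC Genomics Workbench to trim the reads and map them to GRCm39, and the deposited table holds raw counts per gene and mouse. The annotation release, the strand setting and the treatment of reads shared by several genes are not given in the sources used here. Gene names, positions and exon lengths came from GENCODE mouse release 39, which held 19827 of the 19887 identifiers. Each library was 1 mouse, and the mouse numbers, given by order of listing, do not pair mice across diets.

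The software was edgeR 4.0.16 and DESeq2 1.42.0 under R 4.3.3, and scipy 1.17.1 under Python 3.11.15. Low counts were removed with filterByExpr (minimum count 10, minimum total 15), libraries were scaled by TMM, and edgeR's quasi-likelihood fit (robust) used all 4 diets as groups, or the dose of RPS as a number. P-values were adjusted over all 15348 genes tested. Log2 CPM had a prior count of 2. On simulated counts of 15348 genes for 10 against 0% RPS, edgeR found 74 of the 100 genes given a 2-fold change, 93 of the 100 given a 4-fold change and 4 that had none. The changed genes were taken at random from all genes, and each gene was drawn independently. These counts therefore give no rate for members with a wide spread between mice, such as Cd8b1 (SE 0.88 for 10% RPS). Total counts alone did not set the precision. Cd5, with 738 counts over all mice, had an SE of 0.87 for 10% RPS, and Xcl1, with 726, an SE of 0.25. The floor of 3 counts covers counting error only.

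The members and gene lists were chosen with earlier results of these data known. Members described singly are those past a threshold, the 12 with the lowest p for 10 against 0% RPS, the member with the highest level per length in each role, and Cd3e, Cd4, Cd8a, Cd8b1, Cd28, Cd160, Gzma, Gzmb, and Klrd1, beside others named in their role. The alternatives were DESeq2's size factors and Wald test, no filter, a minimum of 10 counts in every mouse, no robust empirical Bayes, immunoglobulin segments left out, a B cell marker or mitochondrial covariate, only the diets compared, the rank of the dose, no fold change threshold, a prior count of 0.5, each mouse left out and, for ratios, the B cell marker level as a term.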

Additional observations from a re-analysis of the deposited data

Results flagged for a closer look

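A mouse was set apart where its gap to the next of its diet, divided by the range of the 5 mice, was over 0.71. This was tested on log2 CPM for 21 members and for the mean of the 33 members tested, in 88 groups of 5 mice, of which chance marks about 1 in 20, and 20 values were found. Mouse 2 on 0% RPS was high for Cd2 (6.13 CPM), Cd160 (4.02 CPM), Lck (12.2 CPM), Cd8b1 (1.04 CPM) and the mean of the members (1.51 log2 CPM). Mouse 3 on 2% RPS was high for Cd6 (5.33 CPM), Cd2 (8.60 CPM), Lck (19.2 CPM), Cd4 (18.4 CPM), Cd8a (5.03 CPM), Gzmb (1.65 CPM) and the mean of the members (1.98 log2 CPM). Mouse 2 on 10% RPS was low for Cd2 (1.19 CPM), Klrd1 (3.77 CPM), Cd4 (3.33 CPM), Cd8b1 (0.103 CPM) and the mean of the members (0.262 log2 CPM). The other values were Xcl1 in mouse 1 on 10% RPS (0.627 CPM, low), Klrd1 in mouse 4 on 5% RPS (2.89 CPM, low) and Cd8a in mouse 3 on 5% RPS (4.19 CPM, high).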

How the results depend on the processing

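For 10% RPS, members called upward went from 0 to 1, Cd28, in DESeq2's Wald test (beside 1.43% of all genes), with the mitochondrial covariate (1.38%) and, among mice left out, without mouse 2 of the controls (1.51%; range 0 to 1). Members called downward went from 0 to 1, Cd7, in the Wald test (1.03%), with the B cell marker covariate (0.215%), with the mitochondrial covariate (0.71%) and without mouse 4 on 10% RPS (0.90%; range 0 to 1). For the trend, members called upward went to 1 in the Wald test (2.01%), with the mitochondrial covariate (2.2%) and with the rank of the dose (1.32%), and to between 0 and 2 with a mouse left out, 2 being Cd28 and Prf1 without mouse 3 on 2% RPS (2.45%). Members called downward for the trend went to 1 in those 3 settings (2.83, 2.71, and 2.19%), with the B cell marker covariate (0.287%), and to between 0 and 1 with a mouse left out. The cause was not tested. The median log2 change of the members for 10% RPS was -0.21 with the B cell marker covariate, and for 2% RPS it ranged from -0.33 (without mouse 3 on 2% RPS) to 0.35 with a mouse left out.

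With the B cell marker covariate the log2 change for 10% RPS reversed for Cd247 (-0.0020), Lck (-0.24), Cd4 (-0.062), Cd3g (-0.16), Cd8b1 (-0.49) and Gzmb (-0.0021). With a mouse left out it ranged across 0 for Cd3e (-0.28 to 0.12), Cd8a (-0.22 to 0.28) and Gzma (-0.74 to 0.45). The Cd8a to Cd8b1 ratio differed by -1.42 with a prior count of 0.5 (adjusted p = 0.0595) and by -1.65 to -1.12 with a mouse left out (adjusted p up to 0.0714), and the Gzma to Cd3e ratio by -0.24 to 0.53. With the B cell marker level as a term, the difference was -0.29 for the Cd8a to Cd8b1 ratio and 0.58 for the Lef1 to Cd3e ratio. It was 0.30 for the Gzma to Cd3e ratio and 1.15 for the Gzmb to Cd3e ratio. The Cd4 to Cd8a, Lef1 to Cd3e and Tcf7 to Cd3e ratios passed with a prior count of 0.5; since their groups do not overlap, leaving out a mouse could not end the separation and says nothing about stability. The number of members with a positive B cell marker slope was between 12 (without mouse 3 on 2% RPS, beside 3.41% of all genes) and 21 (without mouse 5 of the controls, beside 7.27%). No paired analysis was possible because the numbers only follow the order of listing within each diet. Members near the floor, such as Cd8b1, Gzma and Prf1, are limited by depth as well as by the spread between mice.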
